A study of Mus musculus with 6 samples.

Results

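Molecular chaperones of the cytosol and the mitochondrion were followed in mouse Neuro-2a neuroblastoma cells made to express a polyglutamine protein. The genes were chosen by symbol: the Hspa, Hsph, Hsp90a, Hspb, Dnaja, Dnajb, Dnajc, Cct, Bag and Fkbp families, with Hspd1, Hspe1, Tcp1, St13, Stip1, Ahsa1, Ptges3, Stub1, Trap1, Hsf1 and Hsf2, and without Hspa5 and Dnajb11. This gave 61 of the 6788 genes that the array annotation names, all 61 with values on at least 4 of 6 arrays and 55 with values on all 6. Of the textbook members listed by name, 29 were measured, and the other 8, among them Hspa1a, Hspa1b, Hsp90ab1, Ptges3, Hsf1 and Hsf2, were not analysed here. The stress-inducible Hsp70 genes and the heat shock factors are therefore outside everything that follows. The symbols do not hold strictly to the 2 compartments. By textbook location, 8 of the 61 products were counted in the mitochondrion, which leaves out Fkbp8 of its outer membrane. Another 5 (Hspa13, Dnajb9, Dnajc3, Dnajc10 and Fkbp9) were counted in the endoplasmic reticulum, and Hspd1-ps3 is a pseudogene.

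Each array compared cells transfected with GFP-tagged human TBP carrying a repeat of length 59 (59Q) with cells transfected with the GFP vector pEGFPN3 (N3), both harvested 60 h after transient transfection of the same line. TBP, the TATA-binding protein, is the general transcription factor whose expanded glutamine tract underlies spinocerebellar ataxia type 17. As N3 carries no TBP, the comparison joins the added TBP and its long tract, and wells of transient transfection hold untransfected cells too. The 59Q RNA carried Cy5 on 4 arrays (replicates 1, 3, 4 and 6), and Cy3 on the other 2 (replicates 2 and 5). The 2 channels hold RNA of wells and not of sorted cells, so fewer cells with a transcript and less transcript per cell cannot be told apart. No level of any gene was measured, only a ratio, so the line could not be checked by absolute markers.

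Chaperones bind proteins that are not folded or have lost their fold and keep them from aggregating. Hsp70 works in a cycle of ATP hydrolysis: J-domain proteins bring it clients and start the hydrolysis, and nucleotide exchange factors such as Hsp110 and Bag proteins reset it. Hsp90 and its co-chaperones finish many signalling proteins, the ring-shaped chaperonins enclose a client while it folds, small heat shock proteins hold clients without ATP, and Fkbp proteins turn proline bonds. In polyglutamine diseases chaperones are found on the protein inclusions, and the heat shock factor Hsf1 raises many of them when misfolded protein builds up. The question here was whether their transcripts differed between 59Q and N3 cells.

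The deposited value is a Z-ratio, the difference of 2 Z-transformed intensities divided by the standard deviation of all such differences on that array. It has no fold scale, and by construction its SD over the spots of each array is 1. The sources used here do not state whether the value runs 59Q over N3 on every array (the reading as deposited) or Cy5 over Cy3, which turns the sign of replicates 2 and 5. Both readings are given. On replicates 1, 3, 4 and 6 they are the same, and above 0 then means higher in 59Q in either of them. Reading the values by channel order instead would turn replicate 1, and is given among the alternatives. The human transgene's mouse counterpart did not settle the matter. Tbp read 2.92, -0.0977, 0.176 and 1.04 with 59Q in Cy5, against 2.31 and 1.74 with 59Q in Cy3. As deposited this averages to 1.35 ± 1.19 (SD, n = 6) with a limma adjusted p of 0.999, and no gene had a smaller one in that reading. The 2 values with 59Q in Cy3 mean higher in 59Q as deposited and lower in 59Q as Cy5 over Cy3. The arrays differ in quality as well: between 19 and 11234 of 31200 spots had no value, the most on replicate 3. Duplicate spots of the chaperone clones correlated between 0.752 and 0.973, so the spots of a clone lay close together on an array.

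As deposited, no chaperone was called higher or lower in 59Q cells. The mean over arrays was above 0 for 23 of the 61 genes and below 0 for 38, with a median of -0.0427, beside a median of -0.0449 and 43.1% above 0 over all 6463 genes tested. The means ran from -0.798 for Bag5, measured on 4 arrays, to 0.452 for Bag3. None passed the limma test with Benjamini-Hochberg adjustment over all genes, nor did any other gene (0% called higher and 0% called lower, smallest adjusted p = 0.999). At an unadjusted p under 0.05 there were 0 of 61 chaperones, against 2.61% of all genes. None of the 55 chaperones with values on all 6 arrays kept 1 sign on every array, a pattern found in 1.58% of all such genes.

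Among members with means above 0, Bag3, Hspe1, Dnajc10 and Hsph1 had the smallest p as deposited, and among those below 0 Bag5, Dnajc15, Dnajb4 and Cct2. Hspe1, the lid of the mitochondrial chaperonin, read 1.85, 1.11, 0.522 and 1.21 with 59Q in Cy5, against -1.34 and -0.700 with 59Q in Cy3. The 2 orientations lie on opposite sides of 0 and do not overlap, so the mean of 0.444 ± 1.23 (SD, n = 6) is small beside its spread. Orientations lay on opposite sides of 0, in either direction, in 16.2% of all genes on 6 arrays. The share of all genes whose orientations merely do not overlap was not counted, for this gene or for those named below. Bag3, which pairs with small heat shock proteins in the clearance of aggregates, averaged 0.452 ± 0.854, and this rests on replicate 2, where it read 2.16 while its other 5 arrays lay between -0.0678 and 0.387 (mean 0.109 without replicate 2). Of its 2 clones, 1 read 4.39 on that array and the other -0.0636. Bag5, Dnajc15 and Dnajb4 had the lowest means, and for Bag5 and Dnajc15 the value rested on replicate 6, at -2.30 and -2.92, without which the means were -0.297 and -0.188. Cct2, a subunit of the cytosolic chaperonin, averaged -0.335 ± 0.484, with 4 of 6 arrays below 0.

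**Figure D1:**
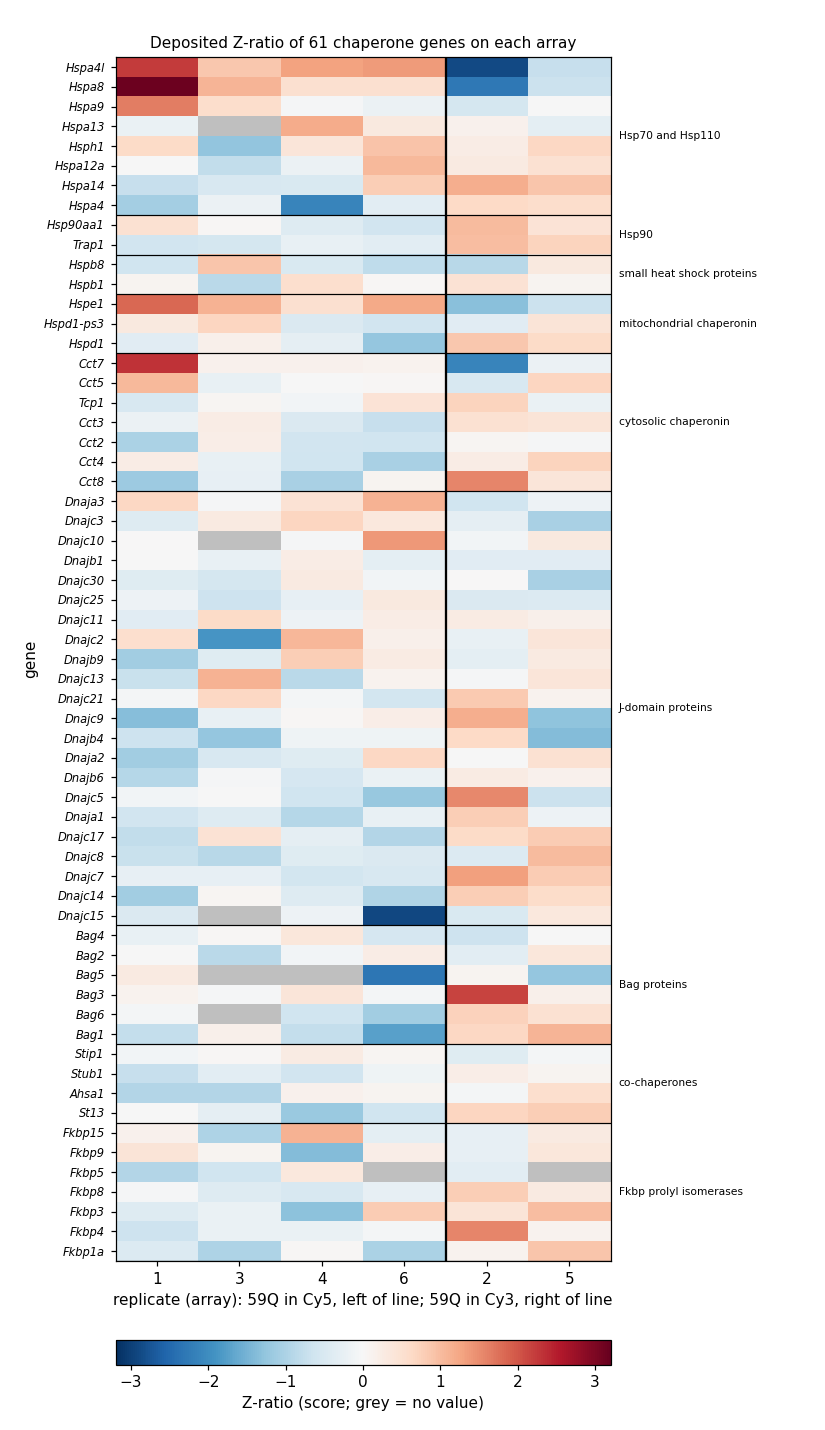
Z-ratio of each of the 61 chaperone genes (rows, grouped by role) on each of the 6 arrays (columns), with the 4 arrays with 59Q in Cy5 left of the 2 with 59Q in Cy3 and the values as deposited; grey cells have no value. Hspa4l, Hspa8, Hspe1 and Cct7 are above 0 in the left block and below 0 in the right one, and most other rows run weakly the other way.

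The plot of values by array shows a different order: the sign of many chaperones followed the dye. The arrays with 59Q in Cy5 had chaperone medians of -0.236, -0.213, -0.175 and -0.105, against 0.136 and 0.301 with 59Q in Cy3. The same holds for all genes, whose medians were -0.173, -0.204, -0.118 and -0.0284 against 0.139 and 0.211. Across the 61 genes, arrays of the same orientation correlated with a median r of 0.269 over 7 pairs (from -0.118 to 0.388) and arrays of opposite orientation with a median r of -0.277 over 8 pairs (from -0.643 to -0.146). Over all genes these medians were 0.162 and -0.192. The correlations are across genes, which are not independent replicates, and arrays share the printed clones and their base composition.

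The difference between the orientations was tested directly, as the mean with 59Q in Cy5 minus the mean with 59Q in Cy3. It could be fitted for 60 chaperones, Fkbp5 having no value on replicate 5. It was positive for 16 and negative for 44, with a median of -0.405, beside -0.319 over the 6439 genes fitted, of which 35% were positive. No chaperone and no other gene passed after adjustment (0%). At an unadjusted p under 0.05 there were 16 chaperones, 4 of them positive, where 5.89% of all genes were positive at that level, and 12 negative, where 10.3% were. Without replicate 2 the 16 became 6, and without replicate 4 they became 10. A dye bias of these clones, and a true response to 59Q if the files give Cy5 over Cy3, produce the same difference and cannot be told apart.

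**Figure D2:**
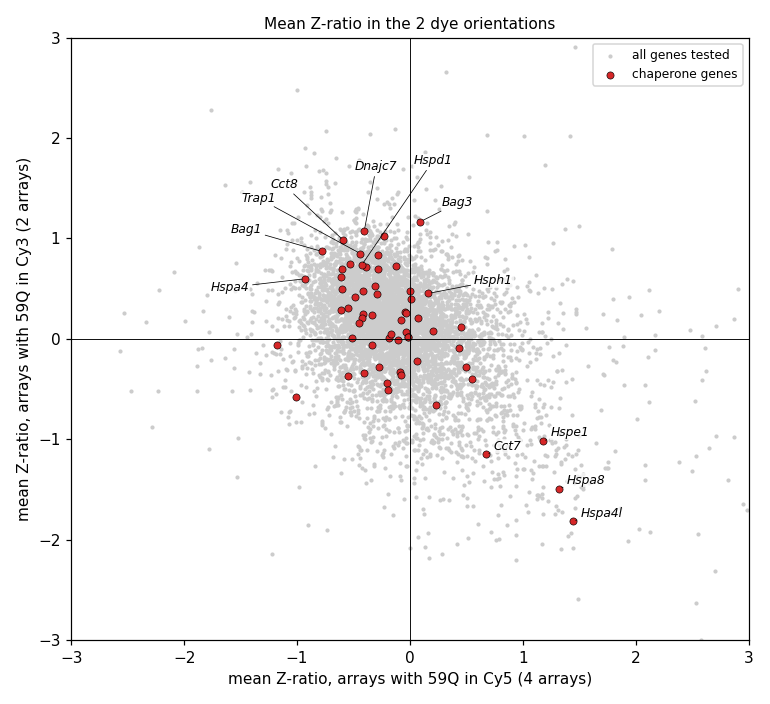
Mean Z-ratio over the 4 arrays with 59Q in Cy5 (horizontal axis) against the mean over the 2 arrays with 59Q in Cy3 (vertical axis), for the chaperone genes (red) and all genes tested (grey; 30 genes lie beyond 3 on an axis and are not drawn). Hspa4l, Hspa8, Hspe1 and Cct7 lie furthest to the lower right among the chaperones, and most other chaperones sit at the upper left with the bulk of the grey points.

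Read as Cy5 over Cy3, 15 chaperones had a mean above 0 and 46 below, with a median of -0.214, beside -0.160 and 34.6% above 0 over all genes. Again no chaperone passed, where 0.263% of all genes were called higher and 0.0155% lower. At an unadjusted p under 0.05 there were 17 (19.8% of all genes), 5 of them higher (6.42% of all genes) and 12 lower (13.4%). Hspa4l and Hspe1 came nearest, both at a limma adjusted p of 0.0659. They alone among the chaperones passed in 6 alternative settings, among them each array centred on its median, genes on all 6 arrays and spot values clipped at 5. In these settings the higher calls over all genes also rose, from 17 to between 48 and 101. No chaperone passed with any 1 replicate left out or with any flip-dye pairing averaged. Among the 55 chaperones on all 6 arrays, 4 lay above 0 on every array (7.27%, against 5.01% of all genes) and 8 below 0 on every array (14.5%, against 11.2%). Having 1 sign on all 6 arrays by itself fixes the exact 2-sided sign-flip permutation p at 0.03125, the smallest that 6 arrays allow. That p therefore adds nothing to these counts, and 16.2% of all genes on 6 arrays had 1 sign in this reading. No chaperone had a mean past the Z-ratio that the methods take as significant, as deposited (0.263% of all genes) or as Cy5 over Cy3 (0.572%). With each array centred on the median of its genes, an alternative added after seeing the data, 28 chaperones lay above 0 and 33 below, against 47.7% of all genes above 0, and 6 were higher and 7 lower at an unadjusted p under 0.05 (9.35% and 5.35% of all genes). The lean of the chaperones below 0 in this reading thus moves with the centring of the arrays. Of the 8 below 0 on every array, only Dnajc7 and Trap1 stayed so after it. Hspa4, St13, Stub1, Fkbp4 and Fkbp8 then lay above 0 on 1 array, and Dnajb6 on 2. The 4 above 0 on every array stayed so, and Dnaja3 and Stip1 joined them.

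The Hsp70 and Hsp110 group held both the highest and the lowest mean as Cy5 over Cy3, in Hspa4l and Hspa4. Its 8 measured members had a median of 0.234 as deposited, with 7 above 0, and of 0.128 as Cy5 over Cy3, with 4 above 0. Hspa8, the constitutive cytosolic Hsp70 of every cell, read 3.15, 1.10, 0.525 and 0.511 with 59Q in Cy5, against -2.29 and -0.690 with 59Q in Cy3. Every value with 59Q in Cy5 lies above both values with 59Q in Cy3, and the mean as Cy5 over Cy3 was 1.38 ± 1.09 (SD, n = 6; limma adjusted p = 0.130; orientation difference 2.81, adjusted p = 0.226). Its highest value is on replicate 1, without which that mean was 1.02, and over replicates 3, 4 and 6 the mean was 0.711. Hspa4l, an Hsp110 relative that exchanges nucleotide on Hsp70, read 2.25, 0.873, 1.29 and 1.36 with 59Q in Cy5, against -2.89 and -0.741 with 59Q in Cy3. Here all 6 arrays take part, with a mean of 1.57 ± 0.837 as Cy5 over Cy3, an orientation difference of 3.26 (limma adjusted p = 0.171) and a mean of 1.17 over replicates 3, 4 and 6.

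The other members of the class ran both ways, and differences between genes were not tested. Hspa4, the paralog of Hspa4l, read -1.09, -0.182, -2.10 and -0.335 with 59Q in Cy5, against 0.642 and 0.555 with 59Q in Cy3. Before centring it lies below 0 on every array with 59Q in Cy5 and above 0 on both others, the reverse of Hspa4l. Its mean was -0.818 ± 0.702 as Cy5 over Cy3 (limma adjusted p = 0.160). Hsph1, the Hsp110 that heat shock induces, read 0.607, -1.27, 0.389 and 0.921 with 59Q in Cy5, against 0.242 and 0.663 with 59Q in Cy3. It was above 0 on 5 of 6 arrays in both orientations, but its 2 clones averaged 0.986 over 5 arrays and -0.0917 over 6, and its mean was 0.259 ± 0.783 as deposited. Hspa9, the mitochondrial Hsp70, read 1.63, 0.566, -0.0254 and -0.175 with 59Q in Cy5, against -0.552 and -0.00195 with 59Q in Cy3. Its means of 0.499 with 59Q in Cy5 and -0.277 with 59Q in Cy3 run the same way as those of Hspa8, through 1 clone at 0.824 as Cy5 over Cy3 with 1 sign on all 6 arrays, while the other lay at 0.0261. Hspa13 also ran this way, at 0.438 with 59Q in Cy5 and -0.0866 with 59Q in Cy3. Hspa14, a ribosome-associated Hsp70, had an orientation difference of -1.26 (limma adjusted p = 0.295). Hspa12a averaged 0.139 as deposited.

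Hsp90 itself shows how far clones of 1 gene can part. Hsp90aa1, the inducible cytosolic Hsp90, was spotted as 9 clones and averaged 0.157 ± 0.612 as deposited and -0.327 ± 0.525 as Cy5 over Cy3. Of the clones, 8 had a mean below 0 as Cy5 over Cy3 (from -1.02 to -0.0456) and 1 a mean of 1.54. That clone, at probes 19575 to 19576, read 2.25, 0.910, 1.67 and 1.95 with 59Q in Cy5, against -1.83 and -0.623 with 59Q in Cy3. It was called on its own as Cy5 over Cy3 (limma adjusted p = 0.0268 over 14418 clones with or without a gene symbol, of which 1.89% were called higher and 0.0486% lower). That share differed between kinds of clone, as given under other observations. The clone at probes 26529 to 26530 carries the same symbol and read -0.410, 0.00796, -1.003 and -2.64 with 59Q in Cy5, against 1.13 and 0.937 with 59Q in Cy3, the opposite order. Whether each clone holds the gene it is named for, and whether it also binds a paralog, was not tested. Trap1, the mitochondrial Hsp90, read -0.602, -0.571, -0.238 and -0.341 with 59Q in Cy5, against 0.982 and 0.716 with 59Q in Cy3. Its orientations lie on opposite sides of 0, as do those of 16.2% of all genes on 6 arrays in either direction. Its mean was -0.575 ± 0.266 as Cy5 over Cy3 (limma adjusted p = 0.159; orientation difference -1.29, adjusted p = 0.245).

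**Figure D3:**
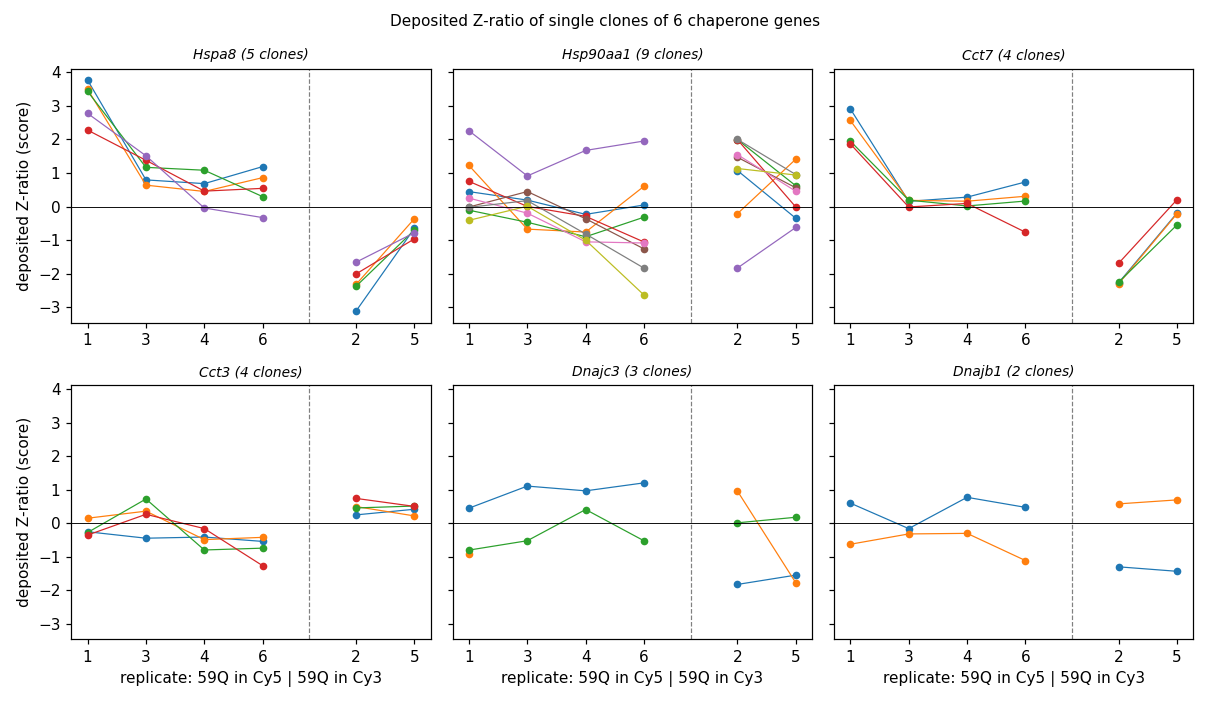
Z-ratio as deposited of single clones (colours) on each array, arrays with 59Q in Cy5 left of those with 59Q in Cy3; lines only link the points of 1 clone and imply no order of the arrays. The 5 Hspa8 clones run together, and 1 of the 9 Hsp90aa1 clones is above 0 on all 4 arrays at left and below 0 on both at right, where most others run the other way.

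By contrast the 5 clones of Hspa8, each a separate sequence, gave means of 1.06 to 1.70 as Cy5 over Cy3, and 4 of the 5 had 1 sign on all 6 arrays in that reading. All 4 Cct7 clones lay above 0, from 0.442 to 1.09. Over the whole group 32 genes were measured by more than 1 clone, and in 21 of these the clones lay on both sides of 0 as deposited. Many means lie close to 0 in that reading, and the share over all genes with several clones was not counted. As Cy5 over Cy3 fewer genes parted, and the share over all genes with several clones was not counted here either. In that reading only 34.6% of all genes lay above 0 without centring, so clones below 0 together need not mean agreement. The clones of Bag3, Cct3, Dnaja1, Dnaja2, Dnajc7, Fkbp4 and St13, which parted as deposited, then all lay below 0. Those of Dnajb1 and Dnajc11 parted only as Cy5 over Cy3. Dnajb1, the classical Hsp40, averaged only 0.0659 ± 0.300 as Cy5 over Cy3, from 1 clone at 0.736 and 1 at -0.604, each with means of opposite sign in the 2 orientations. Tested clone by clone, 4 chaperone clones were called higher as Cy5 over Cy3, the single clones of Hspa4l and Hspe1 and 1 clone each of Hsp90aa1 and Dnajc3. The Dnajc3 clone read 0.450, 1.11, 0.966 and 1.20 with 59Q in Cy5, against -1.82 and -1.54 with 59Q in Cy3 (mean as Cy5 over Cy3 1.18, limma adjusted p = 0.0396), and the gene's other 2 clones averaged -0.0306 and -0.270.

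The mitochondrial chaperonin is a barrel of Hspd1 subunits closed by a lid of Hspe1, and the 2 genes lie head to head. Their RefSeq promoter windows (250 bases before to 50 after the start, GRCm38.p6) overlap by 285 of 300 bases on opposite strands for 1 of the 2 Hspd1 starts. The 150 bases before the start are printed here for Hspe1 and for Hspa4l, Cct7 and Trap1, whose values kept 1 sign on all 6 arrays as Cy5 over Cy3. Capitals mark paired heat shock units, GAANNTTC or TTCNNGAA, which Hsf1 binds when they stand in a row. Of the printed stretches only that of Hspe1 (chr1:55087998-55088147, plus strand) holds them, as neighbouring and overlapping units. Such units are not particular to Hspe1 among genes with 1 sign on all 6 arrays. The windows of Dnajb6, Fkbp4 and Stub1 hold them too, with means of -0.353, -0.471 and -0.352 as Cy5 over Cy3. Those of Dnajc7, Fkbp8 and Hspa4 do not. The other stretches (Hspa4l chr3:40745463-40745612, plus strand; Cct7 chr6:85451355-85451504, plus strand; Trap1 chr16:4077811-4077960, minus strand) hold neither these nor TATAAA, and are printed for contrast.
Hspe1: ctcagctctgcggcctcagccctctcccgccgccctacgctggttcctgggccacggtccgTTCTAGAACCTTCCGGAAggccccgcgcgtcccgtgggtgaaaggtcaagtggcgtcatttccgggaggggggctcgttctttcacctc
Hspa4l: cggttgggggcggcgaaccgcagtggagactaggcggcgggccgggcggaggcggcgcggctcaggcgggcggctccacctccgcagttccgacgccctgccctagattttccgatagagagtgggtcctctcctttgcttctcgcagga
Cct7: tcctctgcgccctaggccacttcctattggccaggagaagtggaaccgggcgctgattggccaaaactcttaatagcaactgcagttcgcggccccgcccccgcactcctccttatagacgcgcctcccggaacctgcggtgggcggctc
Trap1: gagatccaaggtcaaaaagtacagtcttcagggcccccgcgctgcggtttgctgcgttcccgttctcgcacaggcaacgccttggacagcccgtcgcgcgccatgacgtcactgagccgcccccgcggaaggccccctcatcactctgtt

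With the barrel and the lid sharing a promoter region, their values can be set side by side. Hspe1 averaged 1.12 ± 0.474 as Cy5 over Cy3 (SD, n = 6; limma adjusted p = 0.0659) with an orientation difference of 2.19 (adjusted p = 0.172), and over replicates 3, 4 and 6 its mean was 0.950. Hspd1 read -0.356, 0.167, -0.290 and -1.23 with 59Q in Cy5, against 0.865 and 0.602 with 59Q in Cy3. Both of its values with 59Q in Cy3 lie above all 4 with 59Q in Cy5, the opposite order to Hspe1, and its mean was -0.530 ± 0.487 as Cy5 over Cy3 (limma adjusted p = 0.219; orientation difference -1.16, adjusted p = 0.295). Each gene was measured by 1 clone, so no second clone bears on this, and the share of all genes with orientations that do not overlap was not counted. The pseudogene Hspd1-ps3 took both signs in both orientations and averaged -0.00430.

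**Figure D4:**
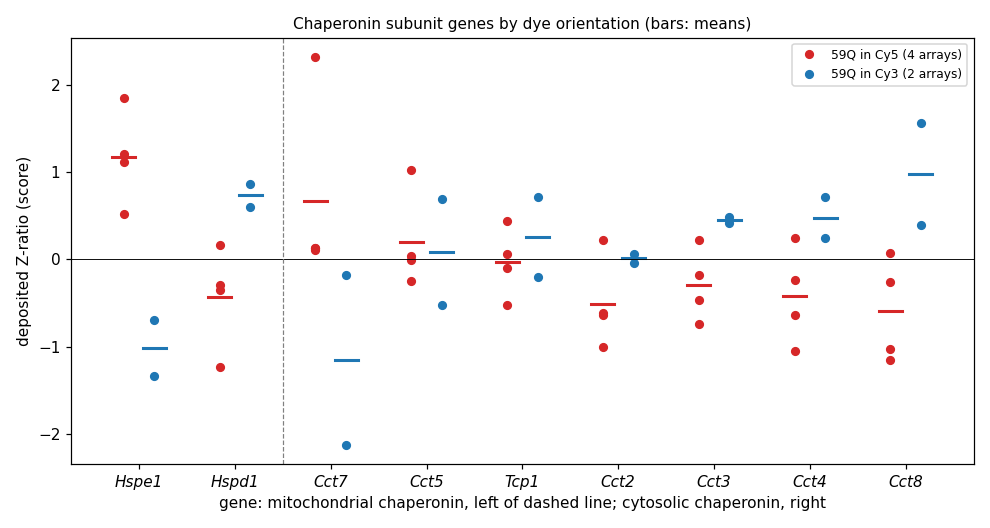
Z-ratio as deposited of the chaperonin subunits on each array, arrays with 59Q in Cy5 (left, 4 points) and with 59Q in Cy3 (right, 2 points), with a bar at each mean. Hspe1 and Cct7 are higher on the left and Hspd1 and Cct8 on the right, and the Cct7 point at 2.32 is replicate 1.

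The cytosolic chaperonin, a ring of 8 different subunits that folds actin and tubulin, was measured through 7 of them, Tcp1, Cct2 to Cct5, Cct7 and Cct8. As deposited 3 had means above 0 and 4 below, from -0.335 for Cct2 to 0.164 for Cct5. As Cy5 over Cy3 the median was -0.343, and Cct5 and Cct7 alone lay above 0. Cct7 read 2.32, 0.129, 0.137 and 0.109 with 59Q in Cy5, against -2.12 and -0.182 with 59Q in Cy3. Its values beyond 1 come from replicates 1 and 2, and the other 4 arrays lie between -0.182 and 0.137, so its mean of 0.833 ± 1.08 as Cy5 over Cy3 (limma adjusted p = 0.236) was 0.536 without replicate 1 and 0.575 without replicate 2. The neighbouring subunit Cct8 read -1.16, -0.254, -1.03 and 0.0773 with 59Q in Cy5, against 1.57 and 0.398 with 59Q in Cy3. With 59Q in Cy5 it lay below both values with 59Q in Cy3, and its mean as Cy5 over Cy3 was -0.720 ± 0.626 (limma adjusted p = 0.176). Cct3 had all 4 clones below 0 in that reading, while the 3 Cct5 clones ran from -0.414 to 0.719 and the 2 Tcp1 clones lay at -0.568 and 0.358. Subunits that the cell builds into 1 ring therefore had means on both sides of 0.

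J-domain proteins, which hand clients to Hsp70, form the largest class. Of 22, 7 had a mean above 0 as deposited and 15 below (median -0.159), and as Cy5 over Cy3 there were 6 above and 16 below (median -0.182). Dnajc7, which binds both Hsp70 and Hsp90, read -0.265, -0.258, -0.578 and -0.520 with 59Q in Cy5, against 1.32 and 0.822 with 59Q in Cy3. All arrays take part, both of its clones lay below 0 as Cy5 over Cy3 (-0.758 and -0.497), and the mean was -0.628 ± 0.401 (limma adjusted p = 0.159; orientation difference -1.48, adjusted p = 0.217). Dnajc14 averaged -0.632 ± 0.420 in the same reading, with 5 of 6 arrays below 0. Dnaja3, the mitochondrial J-domain protein, averaged 0.503 ± 0.407, with 5 of 6 arrays above 0, and its clones lay at 1.005 and 0.000917.

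Dnajb6, known for holding back the aggregation of polyglutamine proteins, read -0.924, -0.0257, -0.544 and -0.208 with 59Q in Cy5, against 0.269 and 0.146 with 59Q in Cy3. Before centring it kept 1 sign on all arrays as Cy5 over Cy3, at -0.353 ± 0.329 (limma adjusted p = 0.317). Its 2 clones, however, averaged -0.788 and 0.0828. Dnajb1 varied least among the J-domain proteins, between -0.366 and 0.237 over the 6 arrays, with the clone disagreement given above. Dnaja1 and Dnaja2, the main cytosolic partners of Hsp70, averaged -0.266 ± 0.578 and -0.148 ± 0.660 as deposited, and -0.468 ± 0.395 and -0.303 ± 0.593 as Cy5 over Cy3. Dnajc15 of the mitochondrial inner membrane read -0.455, -0.164 and -2.92 with 59Q in Cy5, against -0.476 and 0.343 with 59Q in Cy3, with no value on replicate 3. Dnajb4 read -0.671, -1.25, -0.136 and -0.144 with 59Q in Cy5, against 0.643 and -1.39 with 59Q in Cy3. In both the orientations overlap. Dnajc10, a reductase of the endoplasmic reticulum, had the highest mean of the class at 0.318 ± 0.615 (SD, n = 5), from 1.38 on replicate 6. Only 1 of its 2 clones had a value there. The clones averaged 0.147 over 4 arrays and 0.242 over 5, both below the mean of the gene.

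Among the 6 Bag proteins, which release nucleotide from Hsp70, 1 had a mean above 0 as deposited (Bag3) and 5 below. Bag1 read -0.768, 0.153, -0.758 and -1.74 with 59Q in Cy5, against 0.650 and 1.09 with 59Q in Cy3. Apart from replicate 3 its values with 59Q in Cy5 lie below 0, and it had the most negative orientation difference of all chaperones, -1.65 (limma adjusted p = 0.259). As Cy5 over Cy3 its mean was -0.809 ± 0.617 (limma adjusted p = 0.153). Bag6, which shields hydrophobic tails in the cytosol, lay below 0 in that reading before centring on all 5 arrays that measured it, at -0.613 ± 0.378. With arrays centred on the medians of their genes, its replicate 1 lay above 0 (0.0781) and its mean was -0.487. Bag2 and Bag4 averaged -0.124 and 0.0519.

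The co-chaperones link Hsp70, Hsp90 and the proteasome, and all 4 had means below 0 as deposited (median -0.152). St13, which steadies Hsp70 with its client, read -0.0118, -0.292, -1.18 and -0.649 with 59Q in Cy5, against 0.696 and 0.794 with 59Q in Cy3. Before centring its orientations lie on opposite sides of 0, as do those of 16.2% of all genes on 6 arrays in either direction. The mean as Cy5 over Cy3 was -0.604 ± 0.407 (limma adjusted p = 0.171), from clones at -0.816 and -0.479. Stub1, the ubiquitin ligase that marks chaperone clients for destruction, read -0.743, -0.326, -0.607 and -0.126 with 59Q in Cy5, against 0.224 and 0.0890 with 59Q in Cy3, a mean of -0.352 ± 0.266 as Cy5 over Cy3 (limma adjusted p = 0.299). Ahsa1, the activator of the Hsp90 ATPase, took 2 signs in each orientation and averaged -0.362 ± 0.518. Stip1, which joins Hsp70 to Hsp90, stayed between -0.379 and 0.260 on every array, the narrowest range of the 4, while its 3 clones ran from -0.433 to 0.531 as Cy5 over Cy3.

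All 7 Fkbp prolyl isomerases had means below 0 as Cy5 over Cy3 (median -0.381), but with arrays centred on the medians of their genes Fkbp9 (0.0114) and Fkbp15 (0.126) lay above 0, and 34.6% of all genes were above 0 without centring. As deposited 2 were above and 5 below (median -0.0293). Fkbp4, the Hsp90 partner in steroid receptor complexes, read -0.655, -0.216, -0.221 and -0.0575 with 59Q in Cy5, against 1.56 and 0.121 with 59Q in Cy3, and its 3 clones lay between -0.560 and -0.328 as Cy5 over Cy3. Fkbp8, anchored in the outer membrane of mitochondria, also lay on 1 side in each orientation before centring, with a mean of -0.381 ± 0.251 (limma adjusted p = 0.268). Fkbp1a, the target of FK506, averaged -0.564 ± 0.462, and Fkbp5, on 4 arrays, -0.392 ± 0.554 as deposited. Of the small heat shock proteins, Hspb1 averaged 0.0579 ± 0.491 and Hspb8, the partner of Bag3, -0.274 ± 0.711 as deposited. Hspb1 was above 0 on 5 of 6 arrays, with replicate 3 at -0.851.

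By compartment the 8 mitochondrial chaperones had a median of 0.0546 as deposited and 0.0118 as Cy5 over Cy3, with 4 on each side of 0 in both readings. The 5 of the endoplasmic reticulum had medians of -0.0700 and 0.225, and the other 48 had medians of -0.0866 and -0.315. These memberships were assigned after the values had been seen, and other assignments are possible. Fkbp8, anchored in the outer mitochondrial membrane, was counted among the other 48, at -0.0293 as deposited and -0.381 as Cy5 over Cy3. With it among the mitochondrial genes the sides would not be even in either reading. The mitochondrial means as Cy5 over Cy3 ran from -0.682 for Dnajc15 to 1.12 for Hspe1.

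TBP acts at the TATA box and Hsf1 at heat shock elements, so the promoters were searched for both. Of the 61 chaperones, 49 had RefSeq windows (62 windows of 300 bases). TATAAA, on either strand, stood in 1 of 49 (Stip1, 2.04%), against 15.7% of the 27025 genes in the table. GAANNTTC or TTCNNGAA, which read the same on both strands, stood in 14 of 49 (28.6%), against 17.0% of all genes. These were Bag3, Cct2, Cct5, Dnaja1, Dnajb4, Dnajb6, Dnajc10, Fkbp4, Hspb1, Hspb8, Hspd1, Hspe1, Hsph1 and Stub1. Their median was 0.00841 as deposited and -0.285 as Cy5 over Cy3, against -0.0700 and -0.224 for the 35 without. In the first reading 7 of the 14 and 10 of the 35 lay above 0, and in the second 3 of the 14 and 7 of the 35. Hspe1 and Hspd1, with the same paired units in their shared region, had means on opposite sides of 0 in each orientation. A match of letters is not a bound site, and a window without them says nothing of the factor.

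Folding genes outside the chosen symbols were counted in the same way. Of 40 listed (prefoldin subunits, Cdc37, Grpel1 and Grpel2, cyclophilins, tubulin cofactors, mitochondrial proteases and others), 28 were tested. As deposited 12 had means above 0 and 16 below (median -0.0269), none was called, and 1 had an unadjusted p under 0.05, the tubulin cofactor Tbcb at -0.693. As Cy5 over Cy3 there were 8 above and 20 below (median -0.302), none called (smallest adjusted p = 0.0926), and 2 higher and 7 lower at an unadjusted p under 0.05. Ppia, the abundant cytosolic cyclophilin, read 2.33, 1.42, 0.0204 and 1.28 with 59Q in Cy5, against -1.19 and -0.890 with 59Q in Cy3. Its values with 59Q in Cy5 all lie above both others, as those of Hspa8 do. Grpel1, the exchange factor of the mitochondrial Hsp70, averaged -0.572 as Cy5 over Cy3. Of the markers of other cells, 5 fibroblast genes were tested, with means from -0.235 to 0.133 as deposited and from -0.745 to 0.0752 as Cy5 over Cy3, and none was called. Of the markers of the line's own neuroblast type 3 were tested and none was called. Th and Gata3 averaged 0.363 and -0.318 as deposited and -0.0422 and -0.0178 as Cy5 over Cy3. Tubb3, the neuronal beta-tubulin, read 2.23, 1.76, 0.567 and 0.972 with 59Q in Cy5, against -1.36 and -0.769 with 59Q in Cy3. Its mean as Cy5 over Cy3 was 1.28 (limma adjusted p = 0.0666), beside 1.12 for Hspe1 and 1.57 for Hspa4l. The part of neuroblast genes in the chaperone values was not tested.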

How the data were processed

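Total RNA of 59Q and N3 transfected Neuro-2a cells was labelled by tyramide amplification, hybridised to a mouse cDNA array and scanned, and the authors turned the GenePix intensities into Z-ratios. The deposited score is that Z-ratio per spot, as the authors made it; no software version is named in the sources. The methods take a Z-ratio of 1.96 from 0 as significant. Duplicate spots were averaged per clone and clones per gene, over spots with 1 gene symbol (18384 of 31200; 514 had several and 12302 none). Genes on at least 4 of 6 arrays were fitted in limma 3.58.1 (R 4.3.3) with an intercept, eBayes and Benjamini-Hochberg adjustment over all 6463 genes, with a call at 0.05, and the orientation difference in a 2-group fit. The fits were tested on simulated data whose noise was independent between arrays, which says nothing of a dye effect shared by arrays.

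Values carry no intensity, so the number of arrays limits the precision. The methods describe 6 replicates from different culture batches, which the labels do not identify, and the design text speaks of 4 biological replicates and of flip-dye pairs without naming them, so p-values may rest on fewer independent cultures than arrays. The members and gene lists were chosen with earlier results of these data known. Named genes are 29 textbook members, the 4 on each side of 0 with the smallest p in each reading, and the 5 with the smallest p of the orientation difference; others named, such as Dnajb1 clones, Bag6, Fkbp8, Dnajc3, Hspa13, Fkbp9, Fkbp15, Ppia and Tubb3, were chosen after their values were seen. Alternatives covered direction, arrays used, dye, pairing, centring, scaling, filters, variance model, clone summary and symbols. Promoters are RefSeq windows searched in Python 3.11.15.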

Additional observations from a re-analysis of the deposited data

Results flagged for a closer look

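Cct7, a subunit of the cytosolic chaperonin, read 2.32 on replicate 1, far from the 0.109 to 0.137 of the other 3 arrays with 59Q in Cy5, a gap of 0.987 of the whole range. Of 33 named members with 4 such arrays it was the only one set apart in this way, and chance sets apart about 1 group in 20. All 4 Cct7 clones were high on that array, between 1.86 and 2.91.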

How the results depend on the processing

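No alternative gave a call as deposited or in the orientation difference, both at 0 throughout. At an unadjusted p under 0.05, leaving out replicates gave 0 to 3 as deposited and 6 to 15 in the orientation difference (6 without replicate 2, 10 without replicate 4), where robust eBayes with a trend gave 8 against 16. As deposited, the arrays with 59Q in Cy5 alone gave 6 and replicates 3, 4 and 6 alone gave 5, against 0. As Cy5 over Cy3 the count of 0 became 2 (Hspa4l and Hspe1) with array medians subtracted, MAD scaling, quantile normalization, genes on all 6 arrays, values clipped at 5 and array medians of all genes subtracted, the last added after seeing the data, and 4 with clones taken one by one. All genes then gave 53, 74, 81, 68, 48 and 101 higher calls, and clones 272, against 17. Leaving out each replicate, or averaging each of 12 possible flip-dye pairings, gave 0 calls, with 11 to 17 and 11 to 19 at an unadjusted p under 0.05, and 11 without replicate 2. The median as deposited stayed between -0.216 and 0.0100, and between -0.149 and -0.0100 with 1 replicate left out. None of the 37 named means passed the threshold as deposited in any setting, and the cause of the sign changes was not tested. With replicates 2 and 5 turned, 9 changed sign, namely Bag3 (-0.327), Dnajb1 (0.0659), Dnajc7 (-0.628), Fkbp4 (-0.471), Hsp90aa1 (-0.327), Hspb1 (-0.122), Hsph1 (-0.0422), Stip1 (0.114) and Tcp1 (-0.105). With replicate 1 turned (channel order), 19 changed sign, namely Ahsa1 (0.120), Bag1 (0.0271), Cct2 (0.000207), Cct3 (0.0177), Cct5 (-0.179), Cct7 (-0.708), Cct8 (0.320), Dnaja2 (0.227), Dnajb6 (0.0936), Dnajc14 (0.197), Fkbp5 (0.0807), Hsp90aa1 (-0.00402), Hspa4l (-0.393), Hspa8 (-0.666), Hspa9 (-0.304), Hspd1 (0.0774), Hspe1 (-0.173), Stip1 (0.00273) and Trap1 (0.191). Over the arrays with 59Q in Cy5 alone, 6 changed sign, namely Dnajc7 (-0.405), Fkbp4 (-0.287), Hsp90aa1 (-0.127), Hspb1 (-0.0477), Stip1 (0.0628) and Tcp1 (-0.0306). Over replicates 3, 4 and 6 alone, 6 changed sign, namely Cct5 (-0.0702), Dnajc7 (-0.452), Fkbp4 (-0.165), Hsp90aa1 (-0.331), Hspb1 (-0.0953) and Stip1 (0.117). With a dye term, 11 changed sign, namely Bag1 (0.0459), Cct3 (0.0804), Cct4 (0.0291), Cct7 (-0.239), Cct8 (0.196), Dnajc14 (0.0446), Hspa4l (-0.188), Hspa8 (-0.0862), Hspd1 (0.153), St13 (0.106) and Trap1 (0.205). Trap1 turned to 0.0245 with quantile normalization and 0.0184 with array medians of all genes subtracted, and Stip1 to 0.0134 with the median of clones. With 1 replicate left out the means that changed sign ranged as follows: Cct5 -0.00935 to 0.301, Cct7 -0.386 to 0.502, Cct8 -0.392 to 0.152, Dnaja2 -0.308 to 0.0474, Dnajc14 -0.363 to 0.0158, Hspa4l -0.0226 to 1.01, Hspa8 -0.170 to 0.917, Hspa9 -0.0378 to 0.399, Hspd1 -0.222 to 0.198, Trap1 -0.207 to 0.109, Dnajc7 -0.160 to 0.221, Fkbp4 -0.206 to 0.237, Hsp90aa1 -0.0144 to 0.313, Hspb1 -0.0356 to 0.240, Stip1 -0.0883 to 0.0394, Tcp1 -0.0657 to 0.181, Cct3 -0.149 to 0.0968, St13 -0.288 to 0.107, Bag1 -0.493 to 0.0735 and Cct4 -0.287 to 0.0655. No paired analysis was possible because the arrays with 59Q in Cy5 and in Cy3 share no replicate number and the flip-dye pairs are not named, so averaging over all 12 possible pairings, given above, stands in for it. Arrays give no intensity, so signal over background could not be weighed.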

Other observations

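Clones of the chaperones fell into sets by the first letters of their GenBank accession. The 14 whose accession begins with CK had a median of 0.258 as Cy5 over Cy3, against -0.279 for the 95 that begin with BG. Over all named clones the medians were 0.182 (671 clones, 60.1% above 0) and -0.170 (8183 clones, 34.1% above 0). These are clones on at least 4 arrays. As Cy5 over Cy3, 55 of the 671 CK clones were called in the test clone by clone, against 83 of the 8183 BG clones. Of the chaperone clones called, 1 is a CK clone, that of Hsp90aa1, and 3 are BG clones. In 12 chaperone genes with clones of both kinds, on any number of arrays, the CK mean was the higher in 9. Fkbp9 is among these 9 through a CK clone on only 3 arrays, and a Dnajc3 BG clone on 3 arrays also entered. These values were looked at after the clone disagreements had been seen, and a cause was not tested.

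Of 93 chaperone clones on all 6 arrays, 15 lay above 0 on every array as Cy5 over Cy3 (16.1%, against 8.44% of 10156 clones) and 12 below 0 on every array (12.9%, against 8.81%). Clones of 1 gene are not independent. Hspa8 and Cct7 supply several of those above 0, and Fkbp4 more than 1 of those below 0. The 10156 include clones without a gene symbol.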
